A study of Mus musculus with 10 samples.

Results

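The genes described are 10 lymphoid regulators and receptors: the recombinase genes Rag1 and Rag2, the T cell receptor chain genes Cd3d, Cd3e and Cd3g, the receptors Notch1 and Notch3, the T lineage factor Tcf7 and the B lineage factors Pax5 and Ebf1. They were chosen by name from 21887 protein-coding genes, and every region inside or within 20 kb of their spans (mm10) was taken. That gave 134 of the 151133 counted regions, or 148 entries before regions shared by neighbouring genes were counted once. A region's signal is given as CPM per kb: its reads, scaled so that each library's counted reads have the same sum, and divided by the region's width.

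Binding of IKZF2 (Helios) was profiled by CUT&RUN, in which a nuclease brought in by an antibody cuts out the DNA around the protein and the freed fragments are sequenced. The cells were RN2, a C57BL/6 mouse leukaemia line that carries the MLL-AF9 fusion and NRASG12D. All samples came from cells that a retrovirus made to express murine IKZF2 with the marker RFP, so IKZF2 was present above its own level, and that were sorted and grown for 2 weeks. There were 3 libraries with the anti-IKZF2 antibody, each with 2 technical replicates. The 4 samples with a control antibody were not analysed here, so every comparison below is between regions of the same libraries and none is against background. The labels do not say whether the 3 libraries came from separate cultures, and SDs between them measure only the spread between these libraries. CUT&RUN measures no RNA, so the labelled cell type could not be checked against its marker genes.

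IKZF2 belongs to the Ikaros family of zinc finger proteins, which recognise DNA with a GGGAA core and are best known from lymphocyte development. The genes studied are used by developing T and B cells: the RAG recombinase cuts antigen receptor genes, the CD3 chains pass on the T cell receptor signal, Notch receptors and TCF-1 (from Tcf7) direct T cell fate, and EBF1 and PAX5 set up and keep B cell identity. RN2 is a myeloid leukaemia, a setting in which these genes are not the lineage's own program.

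Of the 134 regions, 4 overlapped an annotated transcription start window, from 250 bp before to 50 bp after the start. Of these, 1 lay on the start of a gene of the set, Notch1, and on that of Gm35978 on the other strand, and the other 3 lay on the starts of the neighbouring genes Iftap, Ube4a and Skp1. The windows of Notch1 and the 3 neighbours are shown because they lie under 4 of the 14 strongest regions of the set. They are RefSeq sequences (GRCm38.p6, whose coordinates are those of mm10) and read 5′ to 3′ on the gene's strand. Capitals mark GGGAA or its reverse complement TTCCC. The windows are chr2:101628982-101629281 (minus strand) for Iftap, chr9:44965551-44965850 (minus strand) for Ube4a, chr11:52231745-52232044 (plus strand) for Skp1 and chr2:26503773-26504072 (minus strand) for Notch1.
Iftap: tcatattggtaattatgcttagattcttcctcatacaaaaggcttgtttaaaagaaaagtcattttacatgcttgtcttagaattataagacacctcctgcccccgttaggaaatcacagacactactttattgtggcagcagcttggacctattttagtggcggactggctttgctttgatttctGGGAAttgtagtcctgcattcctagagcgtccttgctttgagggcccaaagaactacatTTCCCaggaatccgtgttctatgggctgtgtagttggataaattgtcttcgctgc
Ube4a: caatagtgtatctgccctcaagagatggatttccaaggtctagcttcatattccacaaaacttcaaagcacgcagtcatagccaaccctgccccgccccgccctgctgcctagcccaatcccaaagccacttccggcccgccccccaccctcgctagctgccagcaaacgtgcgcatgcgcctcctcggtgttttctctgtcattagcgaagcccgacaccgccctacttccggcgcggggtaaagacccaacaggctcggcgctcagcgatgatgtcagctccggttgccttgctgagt
Skp1: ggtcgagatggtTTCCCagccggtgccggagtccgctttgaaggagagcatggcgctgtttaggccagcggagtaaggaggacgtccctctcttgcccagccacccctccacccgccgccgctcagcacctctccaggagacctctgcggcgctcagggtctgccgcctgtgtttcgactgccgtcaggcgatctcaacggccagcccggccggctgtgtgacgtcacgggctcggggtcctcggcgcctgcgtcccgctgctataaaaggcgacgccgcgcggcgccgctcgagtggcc
Notch1: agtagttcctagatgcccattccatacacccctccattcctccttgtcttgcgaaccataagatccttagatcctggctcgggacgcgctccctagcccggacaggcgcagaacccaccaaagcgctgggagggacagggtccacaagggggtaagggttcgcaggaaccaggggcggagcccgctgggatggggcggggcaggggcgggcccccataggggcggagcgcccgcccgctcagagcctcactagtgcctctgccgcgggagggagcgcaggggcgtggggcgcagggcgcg

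The Iftap window held 2 matches to GGGAA, both extended to TGGGAA, and both lay inside the counted region, which ran from -85 to +22 bp around the start. The Skp1 window held 1 match, outside its region (-55 to +39 bp). The Ube4a window (region from -41 to +66 bp) and the Notch1 window (region from -91 to +16 bp) held none. Read on both strands, 62.7% of all 32851 annotated start windows of this length held GGGAA and 25.6% held TGGGAA, so a match is common. Among the 10 genes' own 12 start windows, 10 held GGGAA and 4 held TGGGAA, while the Notch1 and Notch3 windows held neither. A match describes the letters and does not show a binding site.

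Both Iftap matches sit in a longer run of letters, ACTACANTTCCC on either strand, where N is any base and which overlaps TTCCC. This run was searched after the Iftap sequence had been read. It was found in 0.947% of all start windows (311 of 32851), and 15 windows held 2 or more copies, Iftap among them. No window of the 10 genes, Ube4a or Skp1 held it. A counted region lay on 57.2% of the windows with the run and on 18.2% of those without it. Where a window did hold a region, a region in the top 10% of all regions by signal lay on 76.4% of those with the run and on 57.5% of those without it. These shares are descriptions, with no test. Whether IKZF2 or another protein recognises the run was not tested, so it is not to be read as a longer IKZF2 site.

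Depth was low. Technical replicate 1 had 273896 to 326440 reads in regions per library, technical replicate 2 had 1296355 to 1755015, and the sums were 1675237, 1570251 and 2081455 in libraries 1, 2 and 3. Regions of the 10 genes took 1482, 1431 and 2103 of these reads (0.0885, 0.0911 and 0.101%). The median such region had 10, 9 and 15 reads in libraries 1, 2 and 3, and the median of all regions had 10, 9 and 12. In technical replicate 1, 48, 62 and 36 of the 134 regions had no read in libraries 1, 2 and 3.

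Pooled over the 10 genes, region signal was near that of all regions, but Pax5 supplied 71 of the 134. The median region had 51.9 CPM per kb (range 35.0 to 107.5), against 49.5 over all regions, and the median width was 112 bp, against 109 bp. In the top 10% of all regions, which began at 64.0 CPM per kb, lay 14 of the 134 (10.4%), and the share of all regions there is 10% by definition. The count was 3 of 71 in the Pax5 window (4.23%) and 11 of 63 for the other 9 genes (17.5%), a split made after the values were seen, with no test. The 11 include all 4 regions on a start window, at Iftap, Ube4a, Skp1 and Notch1. Over the 134, the share in libraries 1, 2 and 3 was 8.21%, 14.9% and 14.2%, and over the 63 it was 9.52%, 15.9% and 20.6%. Of the 134, 0 reached the top 10% in every library (0.644% of all regions did), and 88 (65.7%) reached it in none, against 72.9% of all regions.

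**Figure D1:**
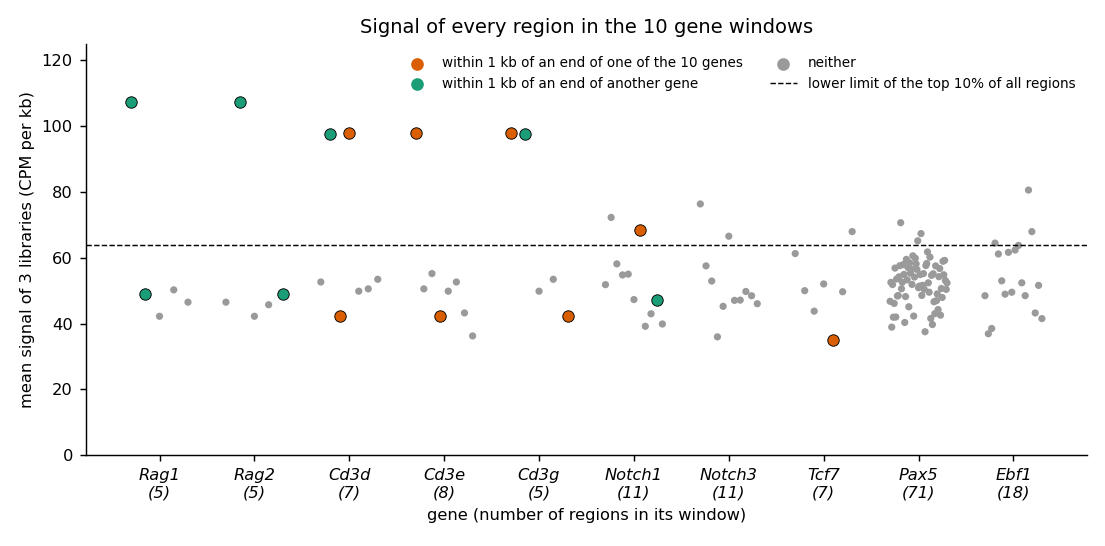
Mean signal over 3 libraries (CPM per kb, y axis) of every region in the window of each gene (x axis, with the number of regions), coloured by whether the region lies within 1 kb of an end of the 10 genes, of another gene, or of neither. Most points lie between 35.0 and 64.0 CPM per kb, and the highest point of Rag1 and Rag2, at 107.5, lies at the end of another gene.

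The libraries ranked these regions differently. The coefficient of variation between libraries had a median of 50.2% over the 134 regions, near the 49.7% over all regions. Of the 134, 97 differed by more than 2-fold between their highest and lowest library. The share of all regions that did so is not given here, so this count marks nothing particular to the set. CPM, not divided by width, was correlated across the 134 regions (Pearson, log2 of CPM plus 0.5, a description since regions share libraries). The correlation was -0.02 between libraries 1 and 2, 0.03 between libraries 1 and 3 and -0.09 between libraries 2 and 3. Over all regions it was 0.00, -0.02 and -0.01. Every counted region had at least 17 reads in total. How a choice of regions by total reads bears on these correlations was not tested. In a model over all 27452 regions with enough reads, edgeR's quasi-likelihood test between libraries, whose residual spread is that between technical replicates alone, called 0.0146% of regions. It called 0 of the 23 regions of the 10 genes that entered it, of which 1 had an unadjusted p under 0.05, as 4.35% of all tested regions did (DESeq2 also called 0, with 1). On simulated counts this test found 1% of 4-fold and 84% of 16-fold changes. That 1 region, chr17:32105083-32105191 past the 3′ end of Notch3, had 23, 0 and 5 reads in libraries 1, 2 and 3. A single region's mean rests on few reads.

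The recombinase genes Rag1 (Entrez gene 19373, chr2:101638252-101649532, minus strand) and Rag2 (19374, chr2:101624712-101632528, plus strand) lie next to each other and encode the subunits of the enzyme that starts V(D)J recombination. Each window held 5 regions. The strongest region of the set, chr2:101629009-101629116, lay inside the Rag2 span and led both windows. It had 0 and 7 reads in the technical replicates of library 1, 2 and 23 in library 2, and 2 and 28 in library 3.

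Its signal was 39.1, 148.8 and 134.7 CPM per kb in libraries 1, 2 and 3, or 107.5 ± 59.7 (SD, n = 3), above 99.0% of all regions. It was low in library 1 and high in both others. Its mean was 41.8 CPM per kb in technical replicate 1 and 120.8 in technical replicate 2. The region covers the start of Iftap, which encodes an intraflagellar transport associated protein and is read from the minus strand, away from Rag1. It lay 4297 bp from the Rag2 start and 3412 bp from the Rag2 3′ end.

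Without the Iftap start, little signal stood out at the Rag genes. The other 5 regions across both windows averaged 42.2 to 50.3 CPM per kb, all below the top 10%. The only region inside Rag1, chr2:101648039-101648147, lay 1385 bp from the Rag1 start and had 27.6, 41.3 and 57.8 CPM per kb in libraries 1, 2 and 3. No region lay within 1 kb of an end of Rag1 or Rag2. Rag1 had 9.75 regions per 100 kb of window and Rag2 10.5, more than 63.8% and 68.4% of genes.

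The CD3 genes lie together on chromosome 9 as Cd3g (12502, chr9:44969572-44980431, minus strand), Cd3d (12500, chr9:44981769-44987052, plus strand) and Cd3e (12501, chr9:44998735-45009663, minus strand), and encode the gamma, delta and epsilon chains of the signalling complex of the T cell receptor. Their windows overlap, so most of their 5, 7 and 8 regions are shared. The highest region of all 3 windows, chr9:44986509-44986621, lay inside Cd3d, 431 bp before its 3′ end. It had 4 and 10 reads in the technical replicates of library 1, 0 and 22 in library 2, and 5 and 17 in library 3.

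That Cd3d region had 74.6, 125.1 and 94.4 CPM per kb in libraries 1, 2 and 3, or 98.0 ± 25.4 (SD, n = 3), above 98.6% of all regions. All 3 libraries exceeded the 64.0 at which the top 10% of mean values begins, but library 1 fell short of its own limit of 88.8. A gene's 3′ end was not a usual place for strong regions: 8.97% of the 2398 regions within 1 kb of a 3′ end and of no start were in the top 10%, against 44.9% of the 6585 regions within 1 kb of a start. For Cd3d the 3′ end is its own, while for Cd3e and Cd3g it is a neighbour's.

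The next region, chr9:44965534-44965641, lies at the start of Ube4a, which encodes a ubiquitin chain assembly factor, 3931 bp beyond the Cd3g 3′ end. It is described although it was outside the naming rule, after its values were seen. It had 83.7, 83.3 and 125.7 CPM per kb in libraries 1, 2 and 3, or 97.6 ± 24.4 (SD, n = 3), which is as high as the Cd3d region within their spread. At the Cd3d start side, chr9:44982107-44982356, 321 bp into the gene, had 50.3, 12.8 and 63.7 CPM per kb in libraries 1, 2 and 3, a mean of 42.3 that lay below the median of all regions, with library 2 far below both others. The nearest region to the Cd3e start was 3019 bp away and averaged 52.7 CPM per kb. By number, Cd3d and Cd3e had 15.5 and 15.7 regions per 100 kb, more than 90.7% and 91.3% of genes, and Cd3g had 9.83.

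**Figure D2:**
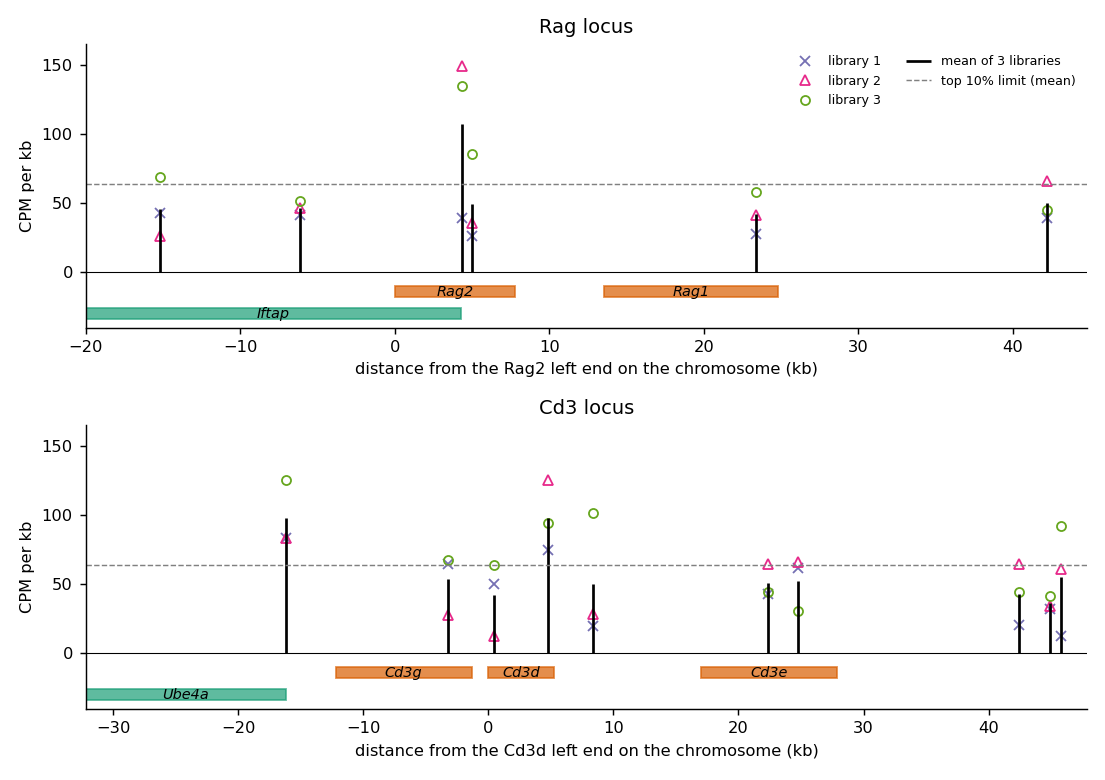
Signal (CPM per kb, y axis) of each region at the Rag locus (top) and the Cd3 locus (bottom) against distance along the chromosome (kb, x axis), with black stems for the mean of 3 libraries, symbols for each library and bars below for gene spans. The tallest stem at the Rag locus, 107.5 CPM per kb, stands at the end of the Iftap bar inside Rag2, and the stem at the end of the Ube4a bar reaches 97.6.

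The Notch receptors, which are cut on ligand binding to release an intracellular domain that acts on transcription, had like numbers of regions: 11 each, or 12.8 per 100 kb. Notch1 (18128, chr2:26457902-26503822, minus strand) was the only gene of the 10 with a region on its own start window, and 26.9% of the 17492 genes with a start window had such a region. The region, chr2:26503806-26503913, had 0 and 10 reads in the technical replicates of library 1, 3 and 10 in library 2, and 4 and 12 in library 3. Its signal was 55.8, 77.4 and 71.8 CPM per kb in libraries 1, 2 and 3, or 68.3 ± 11.2 (SD, n = 3), above 93.4% of all regions, and all 3 libraries lay above the median region. None of the 3 reached its own library's limit for the top 10%, which was 88.8, 91.0 and 84.5 in libraries 1, 2 and 3. The Gm35978 start window covers the same region, so the signal cannot be assigned to Notch1 alone.

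A region inside Notch1, chr2:26472397-26472614, was slightly higher in mean but less steady. It had 4 and 31 reads in the technical replicates of library 1, 4 and 22 in library 2, and 0 and 20 in library 3. That came to 96.3, 76.3 and 44.3 CPM per kb in libraries 1, 2 and 3, or 72.3 ± 26.2 (SD, n = 3), and it overlaps the start region's values. It lay 14495 bp from the nearest end of Notch1 and 26104 bp from that of the nearest other protein-coding gene, Sec16a.

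Notch3 (18131, chr17:32120820-32166896, minus strand) had no region within 1 kb of any of its ends, and the nearest to its start lay 4924 bp away with 53.0 CPM per kb. Its highest region, chr17:32118710-32118812, lay 2008 bp past the 3′ end and had 81.9, 62.4 and 84.8 CPM per kb in libraries 1, 2 and 3, or 76.4 ± 12.2 (SD, n = 3). The region with the most reads, chr17:32133423-32133638, lay inside the gene and was the steadiest of those named, with 63.9, 71.1 and 64.8 CPM per kb in libraries 1, 2 and 3, or 66.6 ± 3.93 (SD, n = 3). It was below the top 10% limit of each library. A second region lay beside it, and the pair spanned 531 bp and held 30, 50 and 43 reads in libraries 1, 2 and 3. None of these 3 regions was within 20 kb of the end of another protein-coding gene. Over the whole window, signal per kb of Notch1 over that of Notch3 differed by 0.05 ± 0.35 on the log2 scale (SD, n = 3; exact sign-flip permutation test over libraries, two-sided p = 1, with 0.25 the smallest it can give).

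Tcf7 (21414, chr11:52246527-52283383, minus strand) encodes TCF-1, a factor that Notch signalling turns on in early T cells. Its window held 7 regions, 9.11 per 100 kb, near the genome's median of 7.81. The region next to its own start, chr11:52283377-52283568, had 28.1, 26.7 and 50.3 CPM per kb in libraries 1, 2 and 3. Its mean of 35.0 was the lowest of the 134 regions and above only 1.43% of all regions.

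The highest Tcf7 window region, chr11:52231940-52232034, was at the start of Skp1, a subunit of SCF ubiquitin ligases, 14493 bp beyond the Tcf7 3′ end. It had 2 and 5 reads in the technical replicates of library 1, 4 and 12 in library 2, and 0 and 10 in library 3. Its signal was 44.5, 108.4 and 51.1 CPM per kb in libraries 1, 2 and 3, or 68.0 ± 35.2 (SD, n = 3), and only library 2 stood high. A second region, chr11:52231577-52231693, lay beside it at 61.3 ± 6.04 CPM per kb, and the pair spanned 457 bp with 20, 26 and 25 reads in libraries 1, 2 and 3. Because the gene span used for Skp1 ends 1418 bp away, the Skp1 region counts as at no gene end in the comparison of ends below, although it overlaps a transcript start.

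**Figure D3:**
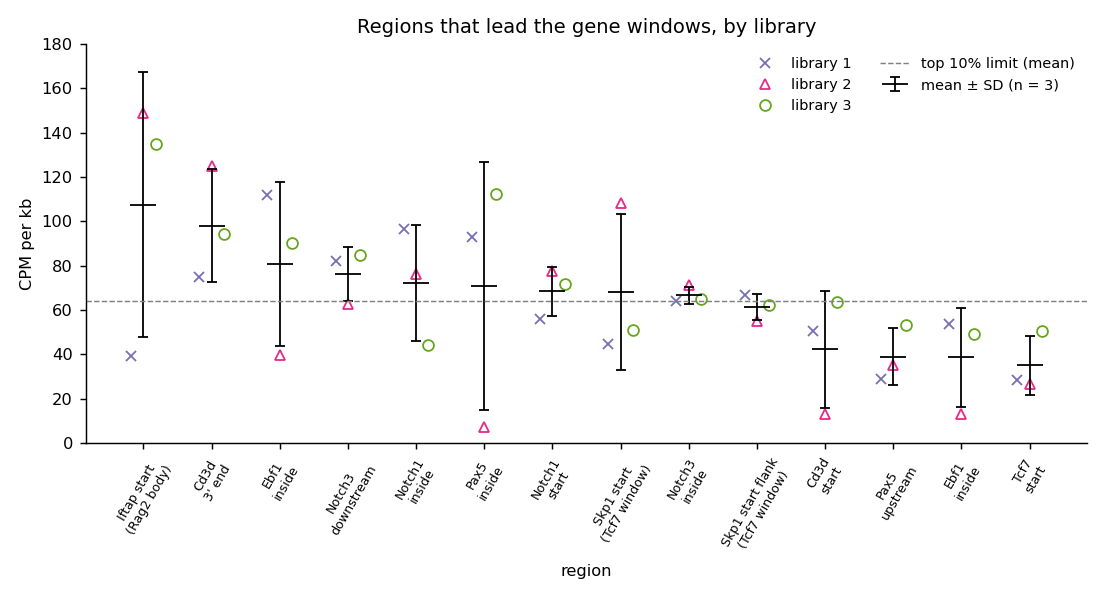
Signal (CPM per kb, y axis) of the 14 regions that led a gene's window by signal or reads or lay within 1 kb of an end of the gene (x axis), with a symbol for each library and bars for mean ± SD (n = 3 libraries). The Iftap start has the highest mean, 107.5, with library 1 at 39.1, and the region inside Notch3 has the narrowest spread, 66.6 ± 3.93.

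Pax5 (18507, chr4:44524748-44710694, minus strand), which encodes a factor that holds B cell identity, had far more regions than the other 9 genes. Its window held 71, of which 61 lay inside the gene, at a median gap of 2213.5 bp. That is 31.4 regions per 100 kb, more than 99.7% of genes and more than all 1221 genes of like span, whose median was 7.11. The reads in its regions came to 2.21, 2.16 and 2.44 CPM per kb of window in libraries 1, 2 and 3, or 2.27 ± 0.150 (SD, n = 3), above 99.0% of genes and steady between libraries.

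The regions themselves were ordinary. The median Pax5 region had 52.6 CPM per kb, and 3 of 71 were in the top 10%. The highest, chr4:44560860-44560950, had 4 and 10 reads in the technical replicates of library 1, 0 and 1 in library 2, and 0 and 21 in library 3. It had 92.9, 7.1 and 112.1 CPM per kb in libraries 1, 2 and 3, so it was high in both others and near 0 in library 2. Among the 30 genes with a like number of regions, the highest Pax5 region ranked above 13.3%.

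No region lay within 1 kb of an end of Pax5. The widest region of its window, chr4:44729152-44729695 (543 bp), lay 18458 bp upstream of the start and collected 116 reads, more than 99.3% of all regions. It had 26, 30 and 60 reads in libraries 1, 2 and 3, but only 39.0 ± 12.7 CPM per kb (SD, n = 3) because of its width.

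The number of regions at Pax5 was shared with its surroundings on chromosome 4. The 183 genes within 10 Mb had a median of 26.1 regions per 100 kb (9.38 to 38.7 from the lowest to the highest decile), and Pax5 ranked above 68.3% of them. By reads per kb of window it ranked above 51.4% of them (2.27, against their median of 2.22). In bins of 1 Mb, the part of chromosome 4 up to 14 Mb past the Pax5 start had a median of 128 regions per bin (range 32 to 320, 55 bins). The part from 16 to 45 Mb past it had a median of 33 (range 12 to 94, 29 bins), and autosomal bins had a median of 60. Copy number, sequence content and chromatin were not measured in these files, and their part in the number of regions was not tested.

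Ebf1 (13591, chr11:44618100-45008096, plus strand), which encodes the factor that acts with PAX5 early in the B lineage, was the longest of the 10 genes and the poorest in regions. Its 18 regions came to 4.19 per 100 kb, more than 22.9% of all genes and 30.9% of the 525 genes of like span. They lay at a median gap of 18690 bp. Its reads came to 0.279, 0.259 and 0.254 CPM per kb of window in libraries 1, 2 and 3.

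Signal per kb of window in Pax5 over Ebf1 was 2.98, 3.06 and 3.27 on the log2 scale in libraries 1, 2 and 3 (SD 0.15, n = 3), a geometric mean of 8.60-fold. All 3 libraries showed it, and the exact sign-flip permutation test over libraries (two-sided) gave p = 0.25, the smallest that 3 libraries allow. The median region did not show it: 52.6 CPM per kb in Pax5 and 52.0 in Ebf1. Regions per 100 kb were 31.4 in Pax5 and 4.19 in Ebf1.

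**Figure D4:**
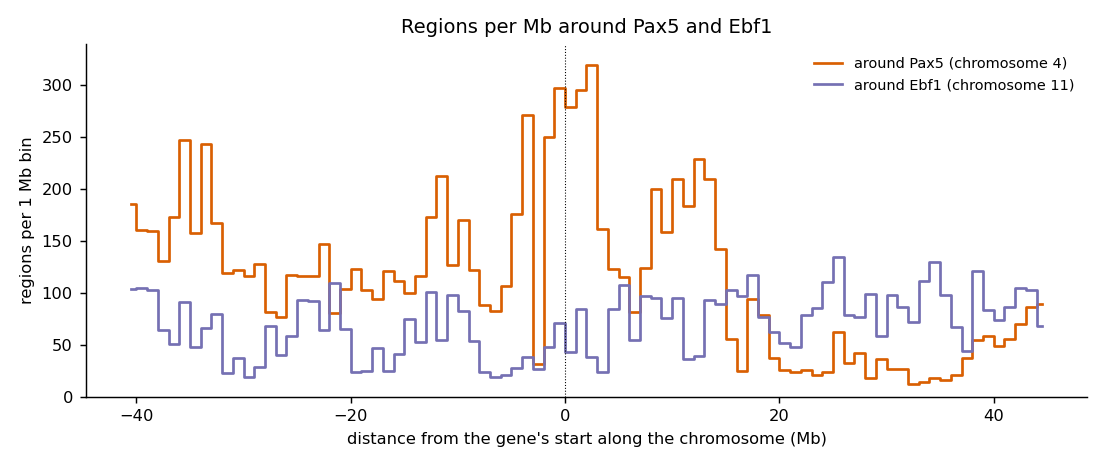
Number of regions in each 1 Mb bin (y axis) against distance from the start of Pax5 on chromosome 4 or of Ebf1 on chromosome 11 (Mb along the chromosome, x axis). Bins near Pax5 reach 320 regions and drop to a median of 33 beyond 16 Mb to the right, while Ebf1 sits among bins with fewer regions.

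Within Ebf1, 4 of its regions fell in a stretch of 2481 bp (chr11:44880775-44883256) in the body of the gene. They made up 22.2% of the window's regions and 23.1% of its reads, with 44, 43 and 52 reads in libraries 1, 2 and 3. The highest, chr11:44881493-44881605, had 4 and 17 reads in the technical replicates of library 1, 4 and 3 in library 2, and 7 and 14 in library 3. It had 111.9, 39.8 and 90.1 CPM per kb in libraries 1, 2 and 3, or 80.6 ± 37.0 (SD, n = 3), and the nearest annotated start of any gene was 206959 bp away. The reads of the stretch, a sum over 4 regions, were more even across libraries than the signal of its single regions. A sum of low counts tends to be more even than its parts, and signal is also scaled and divided by width. Upstream, a region 4310 bp before the Ebf1 start had 76.0, 69.5 and 48.0 CPM per kb in libraries 1, 2 and 3.

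**Figure D5:**
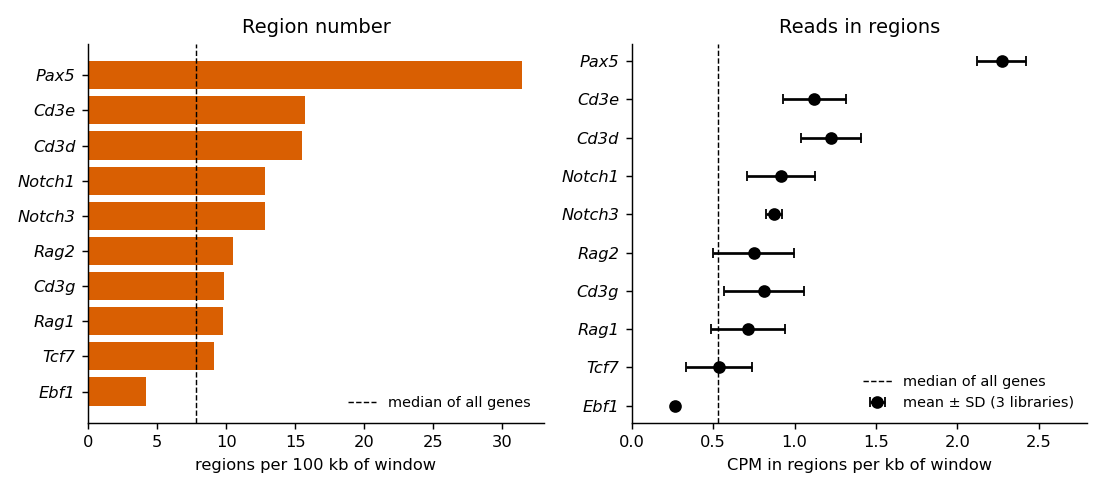
Regions per 100 kb of window (left, bars) and CPM in regions per kb of window (right, mean ± SD over 3 libraries) for the 10 genes, with dashed lines at the median of all genes, 7.81 and 0.530. Pax5 is highest on both scales, at 31.4 and 2.27, and Ebf1 is lowest, at 4.19 and 0.264.

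Gene ends were then compared with all other regions of the set. The 4 regions within 1 kb of an end of any of the 10 genes averaged 52.2, 60.5 and 70.0 CPM per kb in libraries 1, 2 and 3. The other 130 averaged 49.3, 51.8 and 57.6. The log2 ratio was 0.08, 0.22 and 0.28, or 0.20 ± 0.10 (SD, n = 3), positive in 3 of 3 libraries, with p = 0.25 in the exact sign-flip permutation test (two-sided), the smallest it can give. The 4 regions hold both extremes of the set's own ends, the Cd3d 3′ end at 98.0 and the Tcf7 start at 35.0. With only regions of 200 bp or wider the ratio was -0.56 ± 1.32 (SD, n = 3), from 1 region at an end, the Cd3d start side, against 11 others. When a region had to overlap the end itself it was -0.055 ± 0.16, from 2 regions against 132. With ends taken within 5 kb it was 0.19 ± 0.19, from 20 regions against 114 (p = 0.5, same exact test). With technical replicate 1 alone it was 0.11 ± 0.45 (p = 0.75, same exact test). With technical replicate 2 alone it was 0.21 ± 0.04 (p = 0.25, same exact test).

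Ends of genes outside the set were compared in the same way. The 4 regions within 1 kb of such an end averaged 44.4, 70.6 and 111.0 CPM per kb in libraries 1, 2 and 3, against 49.5, 51.2 and 55.9 for the 126 regions at no gene end. The log2 ratio was -0.16, 0.46 and 0.99, or 0.43 ± 0.57 (SD, n = 3), positive in 2 of 3 libraries (p = 0.5, same exact test), so it does not exceed the spread between libraries. Over all regions the ratio of any gene end to the rest was 0.34 ± 0.12 on the log2 scale. In the top 10% lay 2 of the 4 regions at the set's own ends, 2 of the 4 at ends of other genes and 10 of the 126 at neither (7.94%). Over all regions, 34.8% of those within 1 kb of a gene end and 8.07% of the others were there.

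Regions were also split by annotated transcript starts. This split was made after the values were seen and carries no test. The 4 regions on a start window, at Iftap, Ube4a, Skp1 and Notch1, averaged 55.7, 104 and 95.8 CPM per kb in libraries 1, 2 and 3, and the other 130 averaged 49.2, 50.5 and 56.8. The log2 ratio was 0.18, 1.05 and 0.75 in libraries 1, 2 and 3. By mean signal all 4 were in the top 10%, where 56.4% of the 5079 regions on any start window were, and 10 of the other 130 were (7.69%). By each library's own limit, the Iftap region reached the top 10% in 2 libraries. The Ube4a and Skp1 regions reached it in 1 library each, and the Notch1 region in 0.

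Whether a gene's strongest region lay nearer to a neighbour's end than to its own was counted gene by gene. For 5 of the 10 genes the highest region was nearer to an end of another gene than to their own, and this held for 38.2% of all 19977 genes with a region. For Rag1 and Rag2 it lay at the Iftap start, for Tcf7 at the Skp1 start, and for Cd3e and Cd3g at the Cd3d 3′ end. For Cd3d, Notch1, Notch3, Pax5 and Ebf1 the gene's own end was the nearest, and of these only Cd3d had it within 1 kb. Taking only regions in the gene span left 2 genes, and a window of 5 kb left 3. The 38.2% is for the 20 kb window. The share over all genes with narrower windows is not given here, so these lower counts have nothing to be set against.

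By their highest region, none of the 10 genes was in the top 10% of genes, which began at 113.5 CPM per kb and holds 10% of genes by definition. Rag1 and Rag2 came nearest, above 87.6% of genes, followed by the CD3 genes (83.4%), Ebf1 (70.8%), Notch3 (66.1%), Notch1 (60.8%), Pax5 (58.4%) and Tcf7 (53.5%). The count was 2 without library 1, with either technical replicate alone, or with regions in the gene span only.

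Other genes of the same pathways, 42 in all, were counted in the same way. Each had a region, as 91.3% of all protein-coding genes did. Of the 42, 5 (11.9%) were in the top 10% of genes, against 10%. Their median highest region had 70.9 CPM per kb, against 66.6 over all genes with a region. By role, 0 of 4 recombination genes, 2 of 12 CD3 and receptor signalling genes, 1 of 11 Notch pathway genes, 0 of 4 T lineage regulators and 2 of 11 B lineage genes were in the top 10%.

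In all 5 of those genes the highest region lay at another gene's end. Ptcra, the pre-T cell receptor alpha chain, had 137.5 ± 61.3 CPM per kb at the start of Rpl7l1. Cd79a, a B cell receptor signalling chain, had 123.1 ± 33.8 at the start of the ribosomal protein gene Rps19. Cd247, the CD3 zeta chain, had 123.7 ± 25.0 at the start of Creg1, and Notch4 had 118.8 ± 18.3 at 26 bp from an end of Rnf5 (SD, n = 3 each). Only the Cd247 and Notch4 regions of these 5 were in the top 10% of regions in all 3 libraries. The lowest of the 42 was the DNA ligase gene Lig4, with 49.7 ± 21.7 CPM per kb. Over the 42, 16 genes had their highest region nearer to another gene's end, near the 38.2% of all genes with a region.

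Technical replicates were compared because they differed in depth. With libraries as blocks, edgeR's quasi-likelihood model called 0.259% of 27452 regions (Benjamini-Hochberg adjusted p under 0.05). It called 0 of the 23 tested regions of the 10 genes. Of these 23, 4 had an unadjusted p under 0.05, a larger share than the 6.86% of all tested regions. That excess depended on the setting. With no replicate block 4 of the 23 again did (1901 of all 27452), but with edgeR on library totals 0 did (1050 of all). With DESeq2 1 did (1389 of all), and it called 0. In the model with libraries as blocks the lowest adjusted p was 0.48, for chr4:44565661-44566001 inside Pax5 (log2 1.83, SE 0.76, technical replicate 2 over 1). That region had 14, 48 and 29 reads in technical replicate 2 of libraries 1, 2 and 3, against 5, 3 and 0 in technical replicate 1. The Iftap start region had a log2 difference of 2.21 (SE 1.10, edgeR adjusted p = 0.70). On simulated counts the same test found 93% of 16-fold and 9% of 4-fold changes, so most 4-fold differences would be missed at this depth.

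The 20 kb limit of the windows cut through ordinary signal: the 10 regions just inside it had 42.0 to 61.3 CPM per kb (median 50.8), and the 10 just outside it 37.2 to 69.4 (median 48.1).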

How the data were processed

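CUT&RUN with an anti-IKZF2 antibody was analysed in 6 samples (3 libraries, 2 technical replicates each, grouped by sample title). The 4 samples with a control antibody were not analysed here. The authors deposited raw read counts for a common set of 151133 regions, with no normalization. Per the submitters' processing notes the build is mm10, with MACS2 and Bowtie2 2.3.3.1 among the tools; settings and roles were not given in the sources used here. Region starts may be 0-based or 1-based and stand as deposited. Among counts of at least 10, 84.7 to 87.4% were even where the technical replicate was 1, and 58.0 to 61.2% where it was 2. Counting both mates of a pair gives even counts, but the cause of these unlike shares was not tested. Mates and PCR copies are not separate molecules, so where they were counted separately, counting error is understated.

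Technical replicates were summed per library, scaled to CPM over reads in regions and divided by region width. Genes were the protein-coding spans of the RefSeq table of GRCm38.p6; strands came from RefSeq start windows, matched for 17492 genes, and both ends were used otherwise. A gene's value was its highest region in or within 20 kb of the span. Tests on regions used R 4.3.3 and edgeR 4.0.16 (filterByExpr, TMM, glmQLFit, glmQLFTest, Benjamini-Hochberg), with the library as a block between technical replicates, since the series' design text gives each CUT&RUN its own 2 technical replicates. The block was checked: deviations correlated 0.18 to 0.19 within a library and -0.11 to -0.07 between libraries. DESeq2 1.42.0 was an alternative. Ratios over libraries were tested by exact enumeration of their signs (two-sided). On simulated counts with changes of 4-fold and 16-fold, edgeR found 9% and 93% of them for technical replicates (29647 regions, 1 false of 103 calls), and 1% and 84% for libraries (30246 regions, 0 false of 85). Other steps ran in Python 3.11.15 (pandas 2.3.3, numpy 2.4.6, scipy 1.17.1), with figures by matplotlib 3.10.9.

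The members and the list of other lymphoid genes were chosen with earlier results of these data known. Named were, by rule, each member's highest region, its region with the most reads, its highest region within 1 kb of an end, any region in the top 10% in all 3 libraries, and of the other genes the 3 highest, the lowest and those in the top 10%, of which 1 is not reported here. The split by start windows, the clusters of regions, the 1 Mb bins, the longer motif, the Ube4a region and the regions named from edgeR were added after values were seen. Alternatives varied the scaling, width, depth and window, the definition of a gene end, and the libraries used.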

Additional observations from a re-analysis of the deposited data

How the results depend on the processing

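The log2 ratio of the genes' own ends to other regions (0.20) was 0.34 without division by width, -0.56 with regions of 200 bp or wider (1 region at an end) and -0.055 when a region had to overlap the end (2 regions); leaving out 1 library gave 0.15 to 0.25. The share of regions in the top 10% (10.4%) was 8.21 to 11.9% without 1 library, 4.48% for a top 5%, 14.9% when ranked by reads and 17.5% without the Pax5 window, the last 2 chosen after seeing the data. The count of genes in the top 10% (0 by value, a rank with no test) was 2 with technical replicate 1 alone, 2 with technical replicate 2 alone, 1 with a 5 kb window, 2 in the gene span, and 0 to 2 without 1 library. The count of genes whose highest region was nearer to another gene's end (5) was 3 with regions of 200 bp or wider, 3 with a 5 kb window, 2 in the gene span, and 5 to 7 without 1 library. Shares over all genes in these settings are not given here. edgeR's calls between technical replicates (71) were 46 with no filter, 50 with no replicate block in place of the paired fit, and 0 to 18 without 1 library; the 0, without library 2, had 819 regions at an unadjusted p under 0.05. Between libraries (4 calls) edgeR gave 0 with no technical replicate term (1507 at an unadjusted p under 0.05), and 0 to 4 without 1 library (0 without library 2, with 1122, and 0 without library 3, with 956). In no setting run was a region of the 10 genes among the calls reported. TMM scaling and DESeq2 size factors left the first 4 values where they were. For the log2 ratio this was fixed in advance, since it is taken within each library and a library's factor cancels. With a median of 9 to 15 reads per region and library, single regions hold little precision, and dividing by width favours narrow regions.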
